A study of Homo sapiens with 18 samples.

Results

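Untreated cells of 2 human lung cancer lines, H2023 and ABC-1, were compared gene by gene. H2023 is labelled a squamous cell carcinoma line and is described by the series as NRF2-activated, and ABC-1 is labelled an adenocarcinoma line and is described as wildtype. No allele behind either description is named in the labels. Each line gave 3 libraries of total RNA after 24 h with DMSO, the solvent of the drug CCS1477, so the comparison used 6 of the 18 libraries of the series. Each group is 1 established line, so the groups differ in donor, tumour type and every other property of the lines, and none of these can be told apart from NRF2 status. The members are the gene rows that both lines' tables hold, 15333 of the 19717 gene rows in either table, of which 13451 reached at least 1 CPM (reads per 1000000 recovered reads) in at least 3 of the 6 libraries and were tested. Rows in 1 table only have a level in 1 line, and they are given at the end without a test.

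NFE2L2 encodes NRF2, the transcription factor that drives the antioxidant response. KEAP1 binds it in the cytoplasm and hands it to a CUL3 ubiquitin ligase for degradation. Oxidants, electrophiles or mutations that break this contact let NRF2 accumulate, pair with a small MAF protein and bind antioxidant response elements beside genes of detoxification, glutathione synthesis, iron storage and NADPH supply, while BACH1 competes for the same elements. In lung cancers, lasting NRF2 activity is known from mutations of KEAP1 and NFE2L2.

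The 6 libraries held 14483982 to 18261155 recovered reads, so that the counting error of a gene at 1 CPM was 23.4 to 26.3%. Over the tested genes, libraries of the same line correlated with r of 0.991 to 0.993 and libraries of different lines with r of 0.773 to 0.779, both as descriptions across genes. Nothing in the labels says that the 3 libraries of a line were grown apart, and p-values then reflect no more than the spread among these 3, which could be technical. Differences are given as H2023 minus ABC-1 on the log2(scaled reads + 4) scale with the standard error of the limma fit. The constant of 4 shrinks the differences of genes with few reads. After ± stands the standard error for a difference and the SD over 3 libraries for a CPM level, and 2 levels joined by 'against' are H2023 first and ABC-1 second. Adjusted p-values are two-sided, from limma, and genes were called at a Benjamini-Hochberg adjusted p below 0.05. By this rule 5601 genes (41.6% of those tested) were higher in H2023 and 5399 (40.1%) were lower. With a difference of at least 1 on the log2 scale as well, 2394 (17.8%) were higher and 2255 (16.8%) were lower. Since most genes differed, the count of a gene list is read against these shares, and its median against the median of all tested genes, 0.01.

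Antioxidant response elements were looked for in RefSeq promoters, taken as the 250 bases before and 50 after a gene's start (GRCh38.p14), by the core TGACNNNGC on both strands; no other motif was searched. Of 27305 promoters, 3702 (13.6%) held it. Of the 37 tested NRF2 targets of the lists below that matched a promoter by symbol, 8 held it, and of the 27 among them that were higher in H2023, 6 (22.2%) did. The other 2 holders were GSTP1, which was lower in H2023, and GSTA4, which did not pass the test, so a core was not found beside higher targets alone. Of all genes higher in H2023 by at least 1 on the log2 scale, 269 of 1782 promoters (15.1%) held it. The 4 holders with the highest differences are shown to let the letters of the element be seen in its promoter setting, and they were chosen for being higher in H2023. Capitals mark the core, read 5′ to 3′ on the gene's strand, where a core on the other strand appears as its reverse complement.
GPX2: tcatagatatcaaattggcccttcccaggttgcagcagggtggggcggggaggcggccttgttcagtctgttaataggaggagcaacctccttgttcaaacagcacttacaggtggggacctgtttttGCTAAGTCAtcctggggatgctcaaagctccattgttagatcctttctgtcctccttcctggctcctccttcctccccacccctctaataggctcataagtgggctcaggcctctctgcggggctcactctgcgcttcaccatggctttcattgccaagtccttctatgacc
ABCB6: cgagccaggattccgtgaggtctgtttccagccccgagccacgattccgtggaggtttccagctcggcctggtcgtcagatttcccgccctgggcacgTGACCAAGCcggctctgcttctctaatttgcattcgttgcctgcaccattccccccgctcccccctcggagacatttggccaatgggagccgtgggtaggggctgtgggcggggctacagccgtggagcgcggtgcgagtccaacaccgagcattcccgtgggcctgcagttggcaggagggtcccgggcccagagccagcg
GCLM: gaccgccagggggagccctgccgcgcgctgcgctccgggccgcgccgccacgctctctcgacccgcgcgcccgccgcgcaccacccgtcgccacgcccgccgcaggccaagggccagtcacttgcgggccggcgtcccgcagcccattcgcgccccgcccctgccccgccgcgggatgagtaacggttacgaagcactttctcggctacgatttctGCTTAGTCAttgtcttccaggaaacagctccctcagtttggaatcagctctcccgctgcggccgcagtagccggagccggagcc
CBR1: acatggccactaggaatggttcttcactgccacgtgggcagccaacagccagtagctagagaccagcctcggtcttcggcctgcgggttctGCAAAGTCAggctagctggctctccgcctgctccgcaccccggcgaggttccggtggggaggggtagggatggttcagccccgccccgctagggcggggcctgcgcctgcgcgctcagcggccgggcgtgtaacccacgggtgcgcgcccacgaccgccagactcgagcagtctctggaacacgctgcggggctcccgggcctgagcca
The windows are chr14:64942696-64942995 (minus strand), chr2:219218909-219219208 (minus strand), chr1:93909381-93909680 (minus strand) and chr21:36069774-36070073 (plus strand), and the first base of the core lies 122, 152, 34 and 159 bases before the start in that order. The ABCB6 core lies on the gene's strand and the other three lie on the opposite strand. A match is a description of these letters and not a measured binding site.

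The RNA of NRF2 itself, and of KEAP1, was higher in H2023 by less than 1 on the log2 scale. NFE2L2 stood at 155, 157 and 157 CPM in the H2023 libraries and at 96.4, 106 and 93.1 CPM in the ABC-1 libraries, a difference of 0.61 ± 0.047 (adjusted p = 7.52e-07). The gene (chr2:177227595-177392697, minus strand, GRCh38) overlaps AGPS on the other strand, which was itself at 133.0 against 47.5 CPM, and whether the counting used strand is not given in the sources used here. KEAP1 stood at 117, 121 and 123 CPM in the H2023 libraries and at 76.6, 70.7 and 69.7 CPM in the ABC-1 libraries (chr19:10486120-10503741, minus strand), a difference of 0.68 ± 0.043 (adjusted p = 1.91e-07). For both genes every H2023 library lay above every ABC-1 library. Such a separation of the lines, in either direction, was found for 83.5% of all tested genes. The small MAF partners differed more. MAFK stood at 114, 117 and 118 CPM in the H2023 libraries and at 32.3, 31.3 and 30.8 CPM in the ABC-1 libraries, a difference of 1.82 ± 0.038, and MAFG differed by 1.5 ± 0.055 (80.0 ± 2.73 against 27.0 ± 1.73 CPM). BACH1 was higher in H2023 as well, at 97.1 ± 4.05 against 57.3 ± 0.911 CPM (difference 0.70 ± 0.039). CUL3, the scaffold of the KEAP1 ligase, did not pass the test (110.3 ± 5.55 against 111 ± 3.86 CPM, adjusted p = 0.19), while its RING subunit RBX1 was lower in H2023 (difference -0.73 ± 0.052). In all, 7 of 10 tested members were higher in H2023, 2 were lower and 1 did not pass the test.

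The NRF2 targets of drug metabolism and transport formed the list with the highest median of the 41 lists with any tested member, 4.44: 16 of 19 tested members were higher in H2023, 1 was lower and 2 did not pass the test. Each of the 16 differed by at least 1 on the log2 scale. In RNA from bulk cultures, fewer cells that express a gene and less RNA per cell cannot be told apart. AKR1B10 stood at 3106, 3002 and 3043 CPM in the H2023 libraries and at 0.382, 0.383 and 0.483 CPM in the ABC-1 libraries, a difference of 12.12 ± 0.062 (adjusted p = 1.77e-14); it is an aldo-keto reductase that reduces aldehydes and retinal, and it had the highest difference of any gene named by the rule used here. Its reads in ABC-1 came to 19 over 3 libraries. ALDH3A1 stood at 375, 394 and 388 CPM in the H2023 libraries and at 0.191, 0.128 and 0 CPM in the ABC-1 libraries, and ALDH1A1 at 1481, 1478 and 1489 and at 0.191, 0.511 and 0.483 CPM, so both aldehyde dehydrogenases were near the floor in ABC-1. NQO1 stood at 1337, 1312 and 1329.7 CPM in the H2023 libraries and at 59.1, 62.0 and 54.6 CPM in the ABC-1 libraries, a difference of 4.44 ± 0.043 (adjusted p = 7.06e-13). NQO1, a quinone reductase, is the gene most often used to read NRF2 activity, and its RNA was well above the floor in both lines.

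The aldo-keto reductases AKR1C2 (2927 ± 50.4 against 10.6 ± 0.435 CPM, difference 8.02 ± 0.036) and AKR1C3 (938 ± 20.5 against 22.9 ± 0.525 CPM, difference 5.28 ± 0.033) act on steroids and carbonyls. They are close copies of each other and of AKR1C1, so reads may be shared between them. Of the export pumps, ABCC2, which carries conjugates out of the cell, was at 305 ± 4.44 against 1.5 ± 0.340 CPM, ABCC1 at 261 ± 7.46 against 29.8 ± 3.75 CPM and ABCG2 at 39.9 ± 1.31 against 0.510 ± 0.292 CPM, and each was higher in H2023. ABCC5, an exporter of cyclic nucleotides, went the other way: ABCC5 stood at 44.7, 46.3 and 49.3 CPM in the H2023 libraries and at 573, 563 and 576 CPM in the ABC-1 libraries, a difference of -3.66 ± 0.04. ABCC5 lies on chromosome 3 in the stretch of lower genes described further on. UGDH, which makes UDP-glucuronate for conjugation, differed by 3.79, EPHX1, an epoxide hydrolase, by 4.65, and KYNU, an enzyme of tryptophan breakdown, by 5.21. TRIM16 (157 ± 4.00 against 159.5 ± 7.23 CPM) and its copy TRIM16L did not pass the test. Without ABC-1 replicate 3 TRIM16 passed as lower (adjusted p = 0.013), and the list then held 2 lower members.

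**Figure D1:**
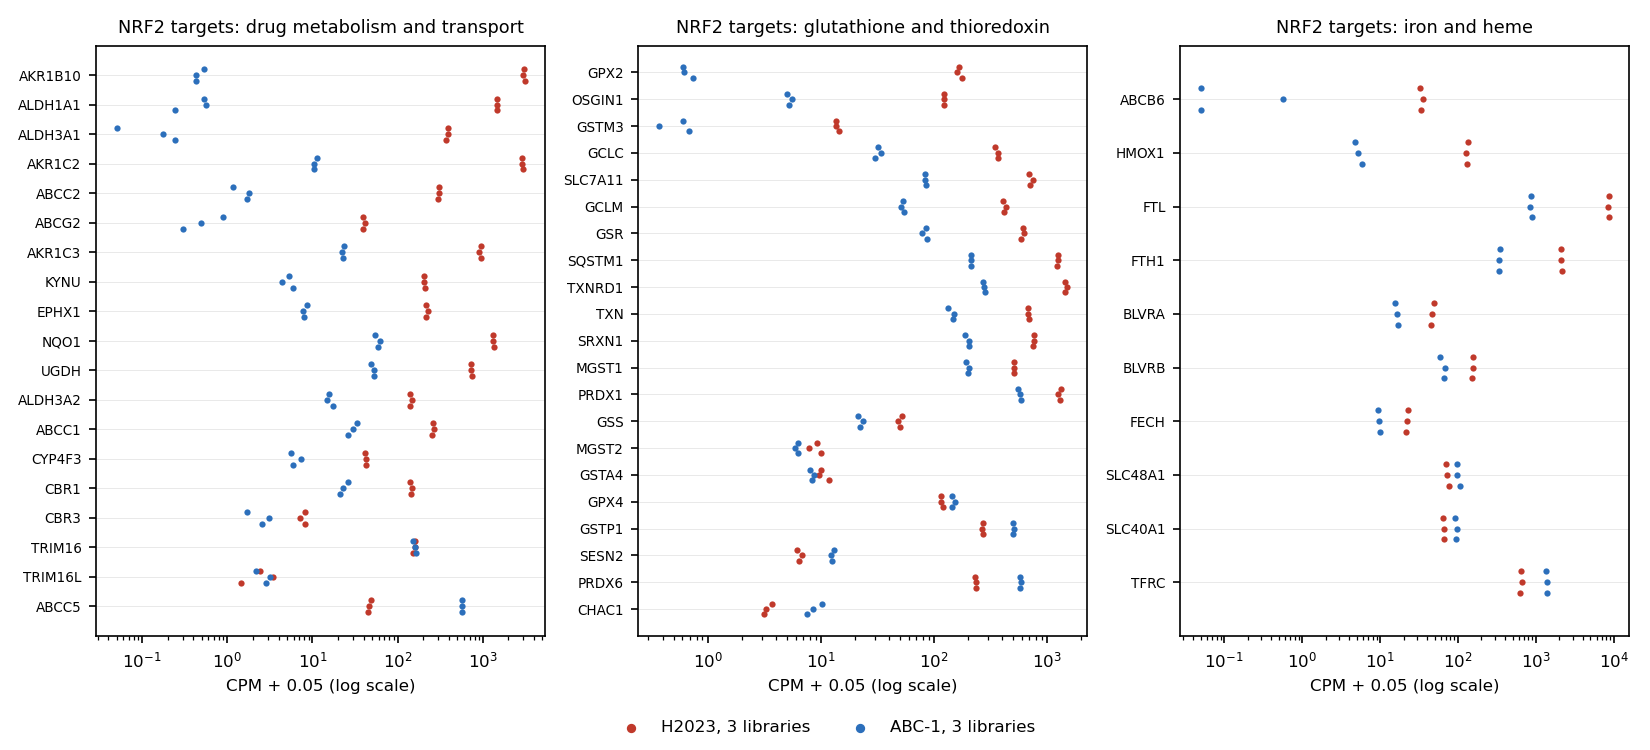
CPM plus 0.05 on a log scale of each tested NRF2 target in the 3 untreated H2023 libraries (red) and the 3 untreated ABC-1 libraries (blue), 1 point per library, ordered within each list by the log2 difference. The red points of AKR1B10 lie at 3002 to 3106 CPM and the blue ones below 1 CPM, while for ABCC5, CHAC1 and TFRC the blue points lie to the right of the red ones.

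In the glutathione and thioredoxin list 15 of 21 tested members were higher in H2023, 5 were lower and 1 did not pass the test, with a median of 1.89. SLC7A11, the cystine importer, stood at 715, 755 and 695 CPM in H2023 and at 84.9, 83.8 and 84.4 CPM in ABC-1, a difference of 3.04 ± 0.033 (adjusted p = 9.15e-13). GCLC and GCLM, the catalytic and modifier subunits of the ligase that starts glutathione synthesis, were at 361 ± 10.6 against 32.2 ± 1.68 CPM and at 419 ± 13.4 against 53.1 ± 1.63 CPM. GSS, the enzyme of the second step, differed less, by 1.09 ± 0.059, and GSR, which recycles oxidised glutathione, by 2.82 ± 0.044. Every library of H2023 lay above every library of ABC-1 for these 5 genes, while 83.5% of all tested genes were separated in either direction. GPX2, a glutathione peroxidase of epithelia, had the largest difference of the list, 7.58 ± 0.097 (168 ± 8.85 against 0.609 ± 0.0799 CPM). In the thioredoxin branch, TXNRD1 (2.35), TXN (2.19), SRXN1 (1.89) and PRDX1 (1.12) were higher in H2023, and the autophagy receptor SQSTM1, which binds KEAP1, was higher by 2.49.

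The 5 lower members were CHAC1 (-1.38), PRDX6 (-1.36), SESN2 (-1.0), GSTP1 (-0.95) and GPX4 (-0.38). GSTP1, a glutathione transferase counted among NRF2 targets in many tissues, stood at 271, 264 and 272 CPM in H2023 and at 500.4, 509 and 497 CPM in ABC-1. GPX4 is the peroxidase that clears lipid peroxides and guards against ferroptosis. CHAC1 and SESN2 are also targets of ATF4. The largest differences in the 2 directions were 7.58 and -1.38.

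Of the iron and heme list, 7 of 10 tested members were higher in H2023 and 3 lower (median 1.33). HMOX1 stood at 129.6, 128 and 132 CPM in the H2023 libraries and at 5.80, 5.11 and 4.76 CPM in the ABC-1 libraries, a difference of 4.52 ± 0.073 (adjusted p = 8.73e-12); it is heme oxygenase, which opens the heme ring. FTL and FTH1, the 2 chains of ferritin, were at 8532 ± 100.3 against 854 ± 25.8 CPM and at 2112 ± 33.8 against 339 ± 5.39 CPM, and reads of their many processed copies could bear on both. BLVRA and BLVRB, which reduce biliverdin made from heme, differed by 1.45 and 1.21, and ABCB6, a porphyrin transporter whose promoter is shown above, by 6.53 ± 0.38 (33.8 ± 1.83 against 0.170 ± 0.295 CPM). The lower members bring iron into the cell or move it across membranes: TFRC, the transferrin receptor, differed by -1.15, the iron exporter SLC40A1 by -0.57 and the heme transporter SLC48A1 by -0.50.

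Genes of NADPH supply were divided (6 of 12 tested members were higher in H2023, 5 were lower and 1 did not pass the test, median 0.09). Malic enzyme, ME1, stood at 384, 380.5 and 371 CPM in H2023 and at 4.14, 3.64 and 4.42 CPM in ABC-1, a difference of 6.41 ± 0.065. PGD, the second oxidative enzyme of the pentose phosphate pathway, was at 1368 ± 9.48 against 177 ± 2.19 CPM (difference 2.90). IDH2, the mitochondrial isocitrate dehydrogenase, was lower in H2023 (9.43 ± 1.5 against 140.5 ± 7.05 CPM, difference -3.93 ± 0.095), and its cytosolic counterpart IDH1 was higher by 0.29.

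Beyond the NRF2 lists, the genes with the largest differences are named by rule: the 12 highest and the 12 lowest among called genes with at least 10 CPM in the higher line and libraries that did not overlap. The 12 highest were AKR1B10 (12.12), ALDH1A1 (11.17), UCHL1 (10.94), CPS1 (10.58), ALDH3A1 (10.10), MSN (9.89), VIM (9.86), SRGN (9.60), KRT7 (9.49), KRT81 (9.36), S100A6 (8.96) and OSMR (8.69). UCHL1, a deubiquitinase of neurons and neuroendocrine cells, stood at 500.0, 497 and 493 CPM in H2023 and had no read in any ABC-1 library, so it was at least 7590.4-fold higher, taking 3 reads over the 3 ABC-1 libraries as the limit of a count of 0. CPS1, the enzyme that starts the urea cycle, was at 1432 ± 37.5 against 0.671 ± 0.206 CPM. KRT7 is a keratin of simple epithelium and KRT81 a hair keratin, SRGN a proteoglycan of secretory granules, S100A6 a calcium-binding protein and OSMR the receptor of oncostatin M. KRT81 lies in a cluster of close copies and overlaps KRT86 on the other strand, and OSMR overlaps RICTOR on the other strand.

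The 12 lowest were IGF2 (-13.34), SLC2A3 (-10.08), UPK1B (-9.24), ST14 (-8.80), FREM2 (-8.47), TENM3 (-8.42), PRSS35 (-8.34), EFHD1 (-8.29), METTL7A (-8.22), AMOT (-8.11), CLDN4 (-8.01) and GALNT6 (-7.98). IGF2, a growth factor of fetal tissues expressed from an imprinted locus, had the largest difference in either direction: it stood at 1.40, 1.37 and 0.910 CPM in H2023 and at 14089, 14325 and 15173 CPM in ABC-1, where it held 1.41 to 1.52% of all recovered reads. Several annotated genes overlap IGF2 on its strand, and the clone AC132217.1 among them was at 330.5 CPM in ABC-1. SLC2A3, a high-affinity glucose transporter, stood at 0.168, 0.602 and 0 and at 468, 478 and 457 CPM. TENM3, a teneurin, had 1 read in H2023 and 4095 in ABC-1, a ratio of 4599 (exact Clopper-Pearson 95% interval 825 to 181711, counting error only). UPK1B is an uroplakin, ST14 the membrane protease matriptase, FREM2 a basement membrane protein, AMOT a scaffold that holds YAP, CLDN4 a tight junction protein and GALNT6 a glycosyltransferase of mucins.

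**Figure D2:**
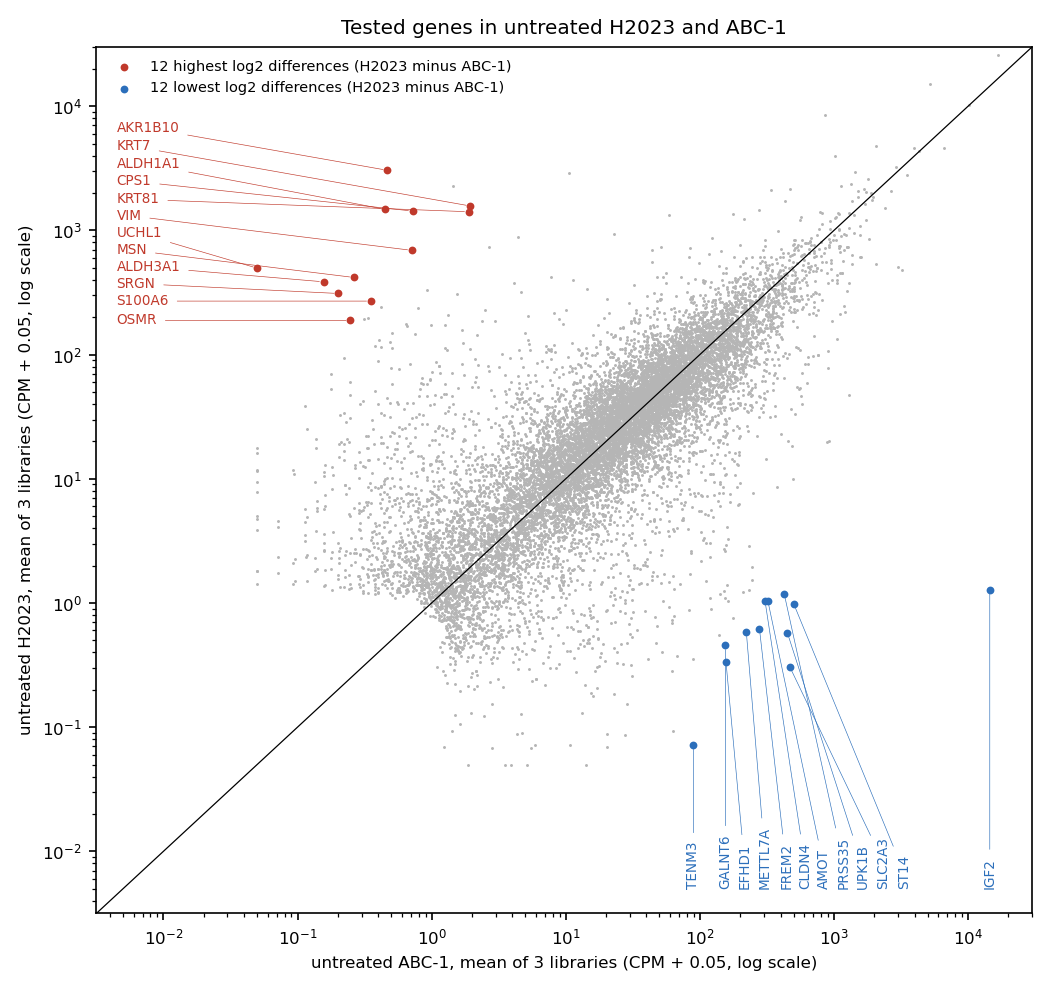
Mean CPM plus 0.05 of each tested gene in untreated ABC-1 (horizontal, log scale) and untreated H2023 (vertical, log scale), 1 grey point per gene, each mean over 3 libraries, with the 12 highest (red) and 12 lowest (blue) differences named. The line marks equal values; the red genes lie below 2 CPM in ABC-1 and the blue genes below 2 CPM in H2023.

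Genes of epithelial adhesion were mostly lower in H2023. In the list of epithelial adhesion and keratins, 4 of 25 tested members were higher in H2023 and 21 lower (median -3.32, 20 lower and 1 higher by at least 2-fold). EPCAM, an epithelial adhesion molecule, stood at 35, 37.2 and 36.7 CPM in H2023 and at 475, 499 and 464 CPM in ABC-1, a difference of -3.77 ± 0.039 (adjusted p = 8.88e-13). CDH1, E-cadherin of the adherens junction, was at 47.4 ± 3.97 against 244 ± 4.16 CPM. The tight junction claudins CLDN4 (-8.01), CLDN7 (-5.62) and CLDN3 (-5.05) and occludin, OCLN (-2.69), were lower in H2023, while CLDN1 was higher by 0.34. The splicing regulators ESRP1 (-6.82) and ESRP2 (-3.23), which hold epithelial splice forms, and the desmosome genes DSP (-4.00) and JUP (-2.24) were lower as well, as were ST14 and its inhibitor SPINT1 (-5.67).

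Keratins did not follow a single direction. KRT8 and KRT18, the pair of simple epithelium, were at 3225 ± 39.1 against 2895 ± 122 CPM and at 2078 ± 16.1 against 1502 ± 86.3 CPM, both among the most similar of the list, and the call of KRT8 was lost without H2023 replicate 2, H2023 replicate 3 or ABC-1 replicate 3 (differences of 0.097, 0.10 and 0.060, adjusted p of 0.059, 0.069 and 0.077). KRT19 was lower in H2023 (133 ± 7.16 against 1047 ± 30.7 CPM), KRT80 was lower (-3.32), and KRT7 and KRT81 were among the highest differences above. ELF3, an epithelial transcription factor, differed by only -0.25.

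Of the mesenchymal genes and regulators of epithelial-mesenchymal transition (EMT), 12 of 17 tested members were higher in H2023, 3 were lower and 2 did not pass the test (median 3.24). VIM stood at 658, 709 and 706 CPM in the H2023 libraries and at 1.08, 0 and 0.898 CPM in the ABC-1 libraries, a difference of 9.86 ± 0.51 (adjusted p = 3.65e-08); vimentin is the intermediate filament of mesenchymal cells. MSN, moesin, which ties actin to the membrane, stood at 417, 422 and 416 and at 0.382, 0.256 and 0 CPM. ZEB1, a repressor of CDH1, was at 30.7 ± 2.35 against 0.197 ± 0.0647 CPM, SNAI1 at 6.13 ± 0.962 against 0.675 ± 0.0780 CPM and CDH2, N-cadherin, at 37.7 ± 2.63 against 1.29 ± 0.253 CPM. TGFBI (8.17), a matrix protein, AXL (7.68), a receptor kinase, and COL4A1 (6.07), a basement membrane collagen, were higher in H2023 too. FN1, fibronectin, was 1 of the 3 lower members: FN1 stood at 94.8, 104 and 95.1 CPM in the H2023 libraries and at 701, 710.2 and 694 CPM in the ABC-1 libraries, a difference of -2.90 ± 0.037. The other lower members were COL5A1 (-2.53) and TAGLN (-2.94), and SNAI2 and COL1A1 did not pass the test. Members that fibroblasts are known for, COL1A2, COL3A1, COL6A3, DCN, LUM and PDGFRA, had no gene row used here. A row in the H2023 table alone was found for 8 members, among them the collagen COL4A2 (45.6 ± 5.39 CPM) and fibrillin, FBN1 (25.3 ± 3.58 CPM), and in the ABC-1 table alone for CDH11 and LOX. These levels are of the gene row alone, and rows named by a transcript of FBN1 held a further 80.8 CPM in H2023. Where at least 1 CPM was required in all 6 libraries, which leaves fewer members tested, 3 members were higher.

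**Figure D3:**
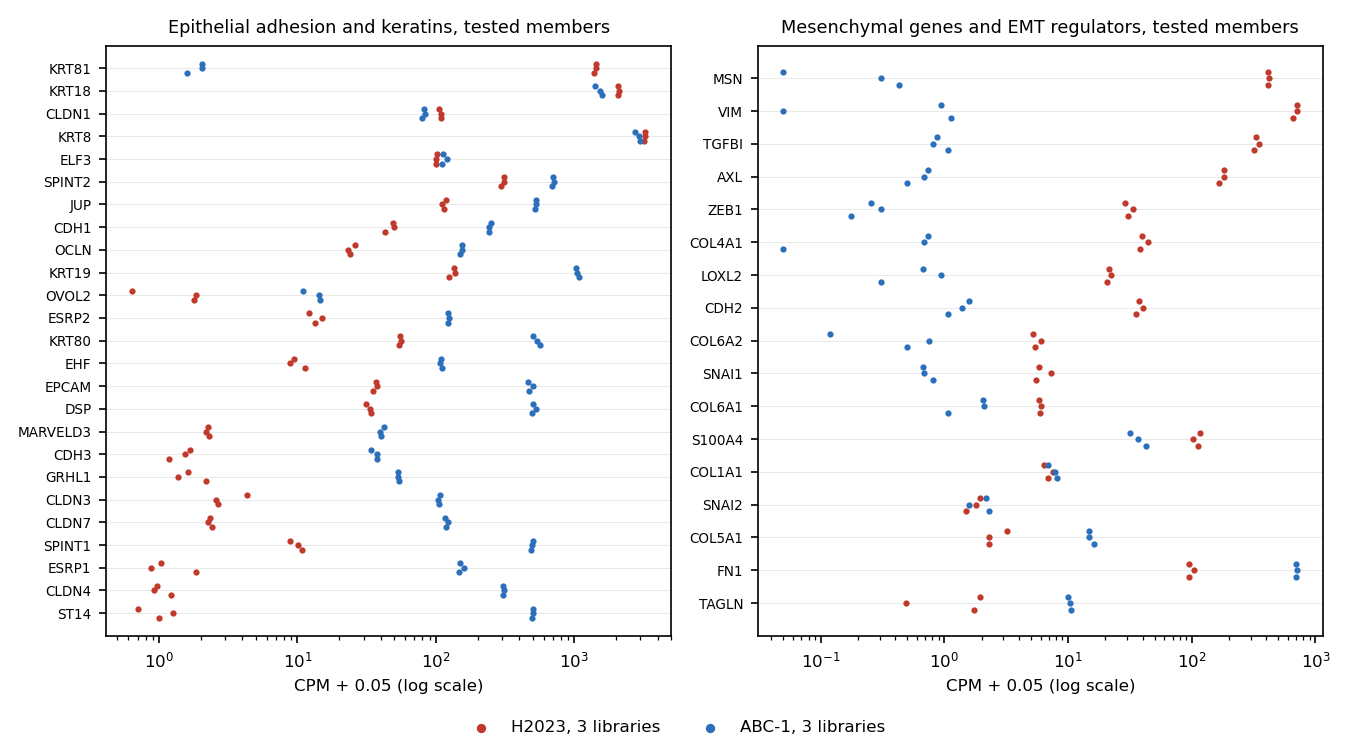
CPM plus 0.05 on a log scale of each tested member of the epithelial list (left) and of the mesenchymal list (right) in the 3 untreated H2023 libraries (red) and the 3 untreated ABC-1 libraries (blue), 1 point per library, ordered by the log2 difference. Blue points lie to the right of red ones for 21 of 25 epithelial genes, and red points lie to the right of blue ones for the 12 mesenchymal genes called higher in H2023.

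The tumour types on the labels were set against their marker genes. Of the 26 genes of squamous differentiation, 7 could be tested, of which 2 were higher and 4 lower in H2023, and 10, among them KRT5, KRT6A, KRT14 and DSG3, had no gene row used here for either line. TP63, the master factor of squamous cells, stood at 2.02, 2.14 and 1.36 CPM in H2023, labelled squamous, and at 1.08, 1.92 and 1.04 CPM in ABC-1, and it did not pass the test (adjusted p = 0.22; 0.049 without ABC-1 replicate 2). TRIM29 (0.716 ± 0.0677 against 46.2 ± 1.23 CPM), KRT15 (0.808 ± 0.152 against 38.8 ± 2.17 CPM) and SERPINB5 (1.35 ± 0.134 against 9.44 ± 1.11 CPM), all of stratified epithelium, were lower in H2023. The 2 higher members were DSC3, a desmosomal cadherin (4.41 ± 0.821 against 1.15 ± 0.334 CPM), and S100A2 (1.69 ± 0.325 against 0.476 ± 0.195 CPM). SOX2, KRT13, KRT17 and SPRR3 had a row in the ABC-1 table alone, at 149 ± 4.51, 83.3 ± 1.12, 12.6 ± 0.520 and 14.3 ± 1.79 CPM. The summed level of the list, 321 to 334 CPM in the H2023 libraries and 746 to 751 CPM in ABC-1, was in H2023 nearly all that of PERP (317 ± 6.46 against 385 ± 6.91 CPM), which other epithelia share. The other 8 of the 9 list members with an H2023 row each had a mean below 5 CPM there, DSC3 and S100A2 included. Most squamous markers were therefore low or without a row in the line labelled squamous, and the lines are called here by their names.

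Of the 5 tested markers of lung adenocarcinoma and alveolar cells, 4 were lower in H2023, that is higher in ABC-1, the line with that label, and 1 was higher in H2023. A further 11 had a row in the H2023 table alone and 2 in the ABC-1 table alone. FOXA1, a pioneer factor of lung and other epithelia, was lower in H2023 (8.88 ± 0.551 against 27.6 ± 0.803 CPM), as was LAMP3, a membrane protein of lamellar bodies (0.245 ± 0.168 against 5.30 ± 0.699 CPM). NKX2-1, the lineage factor of the alveolus, had a row in the ABC-1 table alone, at a mean of 1.34 CPM, and the surfactant genes SFTPA1, SFTPB and SFTPC had no gene row used here. MUC1 was lower in H2023 too (5.45 ± 1.14 against 98.4 ± 4.18 CPM), AGR2 was lower (difference -0.87), and KRT7 was higher, as above. H2023 alone had rows for the hepatic and foregut factors FOXA2 and FOXA3, at 18.4 ± 1.54 and 9.71 ± 0.801 CPM. Of ciliated and secretory airway markers, SLPI alone could be tested and was higher in H2023 (73.0 ± 7.80 against 16.3 ± 0.424 CPM). Of neuroendocrine markers, the 4 tested, UCHL1, DLL3, ENO2 and SYP, were higher in H2023. DLL3, a Notch ligand, was at 8.44 ± 0.870 against 0.546 ± 0.0332 CPM, and SYP, synaptophysin, at 1.54 ± 0.343 against 0.765 ± 0.109 CPM (adjusted p of 0.051 without H2023 replicate 1 and of 0.087 with transcript rows added). NCAM1 had a row in the H2023 table alone, at 42.4 ± 1.34 CPM, while NEUROD1 and INSM1 had none used here. Immune and endothelial markers, which cultured lines should lack, summed to 27.1 to 31.4 CPM in H2023 and 5.25 to 6.96 CPM in ABC-1, from 2 tested members and 5 with a row in 1 table. In H2023 the sum was mostly CD68 (26.6 ± 1.54 against 1.71 ± 0.532 CPM), a lysosomal protein, and CD3E, CDH5 and KDR were among those with no gene row used here. The part of other cells in the differences was not tested.

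Growth factor receptors differed by family member. EGFR was at 658 ± 19.95 against 850.2 ± 29.9 CPM (difference -0.43 ± 0.034), whereas its partners ERBB2 (-1.60) and ERBB3 (-2.40) were lower in H2023 by more. FGFR1 stood at 61.7, 67.5 and 68.0 CPM in H2023 and at 2.74, 2.36 and 1.17 CPM in ABC-1, and FGFR3 at 6.28, 7.56 and 5.72 and at 58.5, 54.4 and 54.1 CPM, so the 2 receptors went opposite ways. FGFR2 had a row in the ABC-1 table alone (63.8 ± 3.28 CPM). AXL (177 ± 8.40 against 0.592 ± 0.129 CPM), MST1R (55.9 ± 2.88 against 6.64 ± 0.446 CPM) and MET (495 ± 12.3 against 268 ± 5.99 CPM) were higher in H2023. Ligands of EGFR were higher in H2023, AREG by 3.95 ± 0.11, HBEGF by 1.29 ± 0.10 and TGFA by 0.78 ± 0.069, and EREG, NRG1 and HGF, the ligand of MET, had rows in the H2023 table alone at 44.3 ± 2.47, 88.1 ± 1.86 and 87.0 ± 1.30 CPM. In the whole list 8 of 14 tested members were higher in H2023 and 6 lower.

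The list of ERK feedback holds inhibitors of the ERK pathway and also other genes that follow ERK activity. It was split, with 9 of 15 tested members higher in H2023 and 6 lower. DUSP4 (279.9 ± 5.66 against 20.3 ± 1.00 CPM), DUSP5 (2.71), SPRY4 (3.59), ETV5 (2.23) and the AP-1 subunit FOSL1 (51.3 ± 2.04 against 0.326 ± 0.165 CPM) were higher in H2023. SPRY1 (-3.08), SPRY2 (-1.60), SPRED2 (-1.05) and the ephrin receptor EPHA4 (-6.44) were lower. ETV5 overlaps DGKG on its strand.

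The YAP and TEAD genes gave the second lowest median of the lists with at least 10 tested members, -0.75 (7 of 21 tested members were higher in H2023, 12 were lower and 2 did not pass the test). The coactivator YAP1 was lower in H2023 (155 ± 5.50 against 369 ± 8.61 CPM) and its paralog WWTR1, or TAZ, was higher (199 ± 6.67 against 42.5 ± 0.334 CPM). Of their targets, CCN2 (-1.95), ANKRD1 (-0.75), AMOTL2 (-1.17) and F3 (-3.79) were lower, and CCN1 (0.60), AJUBA (1.48) and AXL were higher. DLC1, a RhoGAP, had 2 reads in H2023 and 2882 in ABC-1, a ratio of 1618 (exact 95% interval 448 to 13371).

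In the TGF-beta list 13 of 22 tested members were higher in H2023, 8 were lower and 1 did not pass the test. The ligands TGFB1 (59.9 ± 3.36 against 12.7 ± 1.11 CPM), a gene that overlaps HNRNPUL1 on the other strand, and TGFB2 (25.4 ± 1.69 against 0.588 ± 0.0451 CPM) were higher in H2023, and so were SMAD2 (1.24) and SMAD3 (1.01), which carry the signal. The receptor TGFBR1 was lower (54.0 ± 2.22 against 125 ± 2.54 CPM) and TGFBR2 higher (0.50). Integrin chains were mostly higher in H2023: ITGA5 (71.9 ± 2.62 against 0.948 ± 0.315 CPM), ITGA3 (402 ± 16.1 against 11.2 ± 0.759 CPM), ITGB5 (215 ± 5.60 against 20.9 ± 2.19 CPM) and ITGB1 (1404 ± 35.5 against 788 ± 14.7 CPM), with ITGB8 lower (10.7 ± 1.36 against 154 ± 3.38 CPM). Laminin chains LAMC1 (-1.89), LAMB3 (-1.52) and LAMA5 (-1.69) were lower, and LAMA3 was higher (1.74). Over integrins and laminins together, 12 of 18 tested members were higher in H2023 and 6 lower.

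In the WNT list 12 of 19 tested members were higher in H2023, 6 were lower and 1 did not pass the test (median 0.22). WNT10A, a ligand, stood at 0.505, 0.602 and 0.390 CPM in H2023 and at 138, 143 and 137 CPM in ABC-1, a difference of -7.60 ± 0.12, and WNT5A, a ligand of the branch without beta-catenin, was lower too (5.15 ± 0.977 against 37.2 ± 1.64 CPM). The coreceptor LRP6 (1.03), the receptor ligase RNF43 (1.2), the antagonist DKK1 (2.92) and the target AXIN2 (0.89) were higher in H2023. In the NOTCH list 6 of 13 tested members were higher in H2023 and 7 lower (median -0.23): the ligands JAG1 (164 ± 3.95 against 66.1 ± 1.18 CPM) and JAG2 (51.8 ± 2.07 against 13.0 ± 1.68 CPM) were higher, and the coactivator MAML2 (7.52 ± 0.479 against 70.6 ± 1.96 CPM) and the target HES1 (16.7 ± 0.13 against 36.1 ± 1.39 CPM) lower.

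Proteases of the matrix and their inhibitors were higher in 9 and lower in 4 of 13 tested members (median 1.73). SERPINE2, an inhibitor of thrombin and urokinase, was at 70.2 ± 1.91 against 0.128 ± 0.110 CPM, SERPINB9, the inhibitor of granzyme B, at 40.5 ± 1.83 against 0.675 ± 0.0780 CPM and the urokinase receptor PLAUR at 34.4 ± 2.48 against 9.89 ± 0.627 CPM, and urokinase itself, PLAU, had a row in the H2023 table alone at 94.9 ± 3.87 CPM. Tissue inhibitors of metalloproteases went opposite ways, TIMP1 higher (46.3 ± 1.92 against 8.95 ± 1.07 CPM) and TIMP2 (163 ± 2.25 against 315 ± 2.55 CPM) and TIMP3 (50.5 ± 0.0192 against 318 ± 5.56 CPM) lower in H2023. Among caveolins, connexins and tetraspanins 6 of 13 tested members were higher in H2023, 5 were lower and 2 did not pass the test; CD9, a tetraspanin, was lower (34.4 ± 0.752 against 298 ± 3.26 CPM), the connexin GJB2 lower (0.507 ± 0.359 against 30.3 ± 1.46 CPM) and the connexin GJC1 higher (67.1 ± 4.07 against 4.37 ± 0.203 CPM).

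NF-kB targets had a median of 2.19 (10 of 12 tested members were higher in H2023, 1 was lower and 1 did not pass the test). BIRC3, an inhibitor of apoptosis, stood at 149, 155 and 149 CPM in H2023 and at 21.0, 20.1 and 19.9 CPM in ABC-1, a difference of 2.82 ± 0.041 (adjusted p = 4.28e-12). The subunits NFKB2 (156 ± 6.99 against 39.1 ± 0.343 CPM) and RELB (29.2 ± 3.04 against 4.98 ± 0.610 CPM), the cytokines CSF1 (149.9 ± 0.864 against 0.457 ± 0.289 CPM) and CXCL8 (9.52 ± 0.685 against 0.392 ± 0.0516 CPM), and TNFAIP3 (2.59), which ends the signal, were higher in H2023. LIF had 1283 reads in H2023 and 3 in ABC-1, a ratio of 381 (exact 95% interval 130.0 to 1849). ICAM1, an adhesion molecule, was the lower member (77.1 ± 4.61 against 208 ± 3.93 CPM). The neutrophil chemokines CXCL5, CXCL2 and CXCL1 had rows in the H2023 table alone at 423 ± 17.8, 35.4 ± 0.860 and 27.4 ± 0.147 CPM.

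Interferon-stimulated genes were higher in 13 and lower in 4 of 22 tested members, with a median of 0.55. OAS1 (24.9 ± 1.67 against 0.553 ± 0.241 CPM, difference 4.97) had the highest difference, which fell to 1.35 once transcript rows were added to the gene rows. IRF9 (8.82 ± 1.41 against 0.177 ± 0.107 CPM) was higher in H2023 while its partner STAT2 was lower (25 ± 3.39 against 101 ± 5.98 CPM). SAMD9 was at 43.3 ± 0.966 against 6.02 ± 0.578 CPM and MX1 at 4.39 ± 0.668 against 0.243 ± 0.109 CPM. In antigen presentation 10 of 15 tested members were higher in H2023, 4 were lower and 1 did not pass the test (median 0.62). HLA-B (56.2 ± 1.73 against 13.7 ± 1.31 CPM) was higher and HLA-C (165 ± 9.07 against 354 ± 9.28 CPM) and HLA-E (39.4 ± 1.92 against 79.7 ± 5.03 CPM) lower in H2023; these genes are polymorphic near-copies, so their reads may be split differently in the 2 lines. TAP1, a peptide transporter, was at 44.0 ± 0.0860 against 9.75 ± 0.397 CPM and ERAP2, a trimming peptidase, at 31.5 ± 1.22 against 0.717 ± 0.104 CPM, with ERAP1, which overlaps CAST on the other strand, at 21.0 ± 0.769 against 51.6 ± 1.67 CPM.

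Several tumour suppressors of lung cancer stood far apart, though of the list of tumour suppressors and oncogenes 12 of 24 tested members were higher in H2023, 10 were lower and 2 did not pass the test. SMARCA4, the ATPase of the SWI/SNF remodelling complex (chr19:10960825-11079426, plus strand, GRCh38), stood at 5.10, 8.54 and 5.85 CPM in H2023 and at 159.8, 168 and 172 CPM in ABC-1, a difference of -4.72 ± 0.15 (adjusted p = 7.73e-10). Its alternative, SMARCA2, was at 37.4 ± 3.59 against 44.7 ± 1.12 CPM. Of the 52 tested genes that start within 1 Mb of SMARCA4, KEAP1 among them, 20 were lower and 19 higher in H2023, with a median of -0.098. STK11, the kinase LKB1 (chr19:1177558-1228435), had a row in the ABC-1 table alone, at 68.2, 61.5 and 58.5 CPM, and the 64 tested genes within 1 Mb of it had a median of -0.16. NF1, a brake on RAS, was higher in H2023 (141 ± 1.51 against 23.1 ± 1.88 CPM).

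On chromosome 9, CDKN2A, which encodes p16 and ARF (chr9:21967753-21995301, minus strand), had a row in the ABC-1 table alone, at 39.9, 40.7 and 40.7 CPM. Its neighbour MTAP, an enzyme of methionine salvage (chr9:21802543-21937651), stood at 1.12, 0.767 and 1.30 CPM in H2023 and at 24.7, 25.7 and 25.8 CPM in ABC-1, a difference of -4.36 ± 0.16 (adjusted p = 3.12e-09). CDKN2B, which encodes p15, lies on the other side (chr9:22002903-22009363) and was lower in H2023 as well (6.47 ± 0.577 against 26 ± 1.25 CPM). Of the 6 tested genes that start within 1 Mb of CDKN2A, 4 were lower, MTAP and CDKN2B included, and 2 were higher in H2023, by up to 2.22, with a median of -0.51. In the list of cell cycle inhibitors and G1 cyclins 7 of 19 tested members were higher in H2023, 10 were lower and 2 did not pass the test. CCNE1 (36.7 ± 0.606 against 4.31 ± 1.22 CPM) and CCND3 (285 ± 7.79 against 106 ± 2.38 CPM) were higher in H2023 and CCND1 (215 ± 7.85 against 373 ± 4.02 CPM) was lower. CDKN1A, encoding p21, was higher (37.0 ± 0.341 against 19.8 ± 2.04 CPM), although of the p53 target list 10 members were higher and 12 lower out of 23. TP53INP1 (-3.50) and ZMAT3 (-2.81) were the lowest of these targets, and FAS (1.97) and GDF15 (1.96) the highest.

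Genes of proliferation differed little in size. In G2/M and mitosis 11 of 20 tested members were higher in H2023, 8 were lower and 1 did not pass the test with a median of 0.21, and in G1/S and DNA replication 7 were higher and 7 lower of 20. CDC20 (1.33) and PLK1 (1.10) were the mitotic genes past 2-fold, and PCNA (-1.19) and RRM2 (-1.36) the replication genes. The MYC family was divided between the lines. MYC stood at 192, 193 and 191 CPM in H2023 and at 33.6, 34.9 and 37.1 CPM in ABC-1 (difference 2.38 ± 0.042), MYCL at 1.43 ± 0.347 against 18.6 ± 1.22 CPM, and MYCN had a row in the ABC-1 table alone, at 108, 113 and 106 CPM. Ribosome biogenesis genes RRS1 (1.49), WDR12 (1.19) and POLR1B (1.00) were higher in H2023, and in the list 14 of 21 were higher.

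EP300 and CREBBP encode the acetyltransferases p300 and CBP, whose bromodomain CCS1477 binds. EP300 stood at 129, 133 and 127 CPM in the H2023 libraries and at 223, 221 and 228 CPM in the ABC-1 libraries, a difference of -0.84 ± 0.03, and CREBBP at 147, 147 and 146 and at 159, 160.0 and 159 CPM, a difference of -0.18 ± 0.027. For both, every H2023 library lay below every ABC-1 library, while 83.5% of all tested genes were separated in either direction. Over acetyltransferases, BET proteins and other chromatin genes, 10 of 30 tested members were higher in H2023, 13 were lower and 7 did not pass the test (median -0.068). Beside SMARCA4 the far value was HDAC5, a class IIa deacetylase (1.01 ± 0.355 against 30.9 ± 1.52 CPM, difference -4.72 ± 0.19); HDAC3 (1.18) and KAT7 (1.02) were higher in H2023.

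In metabolism, glycolytic genes were mostly higher in H2023 (19 of 27 tested members were higher in H2023 and 8 lower, median 0.71). ENO1 (3945 ± 75.9 against 1014 ± 46.8 CPM), GAPDH (4806 ± 51.9 against 2055 ± 63.6 CPM), GPI (1.39), TPI1 (1.24) and LDHA (1.08) were higher in H2023. Isoforms of phosphofructokinase went opposite ways: PFKP, the platelet form, stood at 234, 244 and 241 CPM in H2023 and at 1.02, 0.511 and 0.690 CPM in ABC-1, while PFKL, the liver form, was lower in H2023 (46.5 ± 2.58 against 139 ± 4.37 CPM). The glucose transporters SLC2A3 and SLC2A1 (31.3 ± 8.20 against 53.6 ± 2.56 CPM), both of this list, were lower in H2023. Glucose transporters outside the list were not looked at here. The lactate exporter SLC16A3 was higher in H2023 (129 ± 4.52 against 17.8 ± 0.665 CPM). The carbonic anhydrase CA12 had a row in the H2023 table alone, at 521, 537 and 525 CPM.

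Cholesterol synthesis and uptake was lower in H2023 in 15 of 19 tested members, with 1 higher and a median of -0.69. The synthase HMGCS1 was at 124 ± 8.51 against 294 ± 4.75 CPM, DHCR7, the enzyme of the last step, at 67.7 ± 4.00 against 181 ± 0.950 CPM and the carrier STARD4 at 11.1 ± 1.19 against 81.7 ± 1.97 CPM. The master factor of this pathway, SREBF2, did not pass the test (126 ± 6.18 against 119 ± 1.62 CPM). Of lipid genes, the desaturase SCD was lower (477 ± 21.0 against 3219 ± 71.3 CPM) and the polyunsaturated fatty acid desaturases FADS1 (228 ± 6.42 against 2.47 ± 0.291 CPM) and FADS2 (175 ± 3.77 against 0.937 ± 0.0737 CPM), which overlap on opposite strands, were higher in H2023. PLIN2, a coat of lipid droplets, was higher by 5.37 ± 0.27 and ACSL1, an acyl-CoA synthetase, lower, with a difference of -3.67 ± 0.08.

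ER chaperones were lower in H2023 in 15 of 18 members (median -0.70), with HSP90B1 at 402 ± 4.14 against 1059 ± 31.2 CPM and CALR at 540.4 ± 10.7 against 1358 ± 15.0 CPM, and the sensor ERN1 (34.7 ± 0.448 against 12.0 ± 1.05 CPM) and DNAJC3 (1.03) were the higher ones. In the ATF4 list 10 were higher and 9 lower of 21; the amino acid transporters SLC7A5 (1733 ± 36.3 against 433 ± 7.12 CPM) and SLC3A2 (389.8 ± 11.8 against 109.8 ± 2.62 CPM) were higher and ATF4 itself was lower (-0.54). Cytosolic ribosomal protein genes were lower in 23 and higher in 4 of 31, by small amounts (median -0.42), with RPL37 (-1.63) and RPL10 (-1.60) the lowest. Nuclear genes of the respiratory chain were higher in 13 and lower in 8 of 25, with SDHA (73.5 ± 1.88 against 311 ± 10.5 CPM) and its partner SDHB (112 ± 2.75 against 50.4 ± 0.502 CPM) going opposite ways. Mitochondrially encoded RNAs varied widely within a line, since ABC-1 replicate 3 held 2.40% of its reads in them and the other 5 libraries 1.54 to 1.81%. Their counts of higher and lower members, 2 and 6 of 14, became 5 and 6 without that library, and the lower ones 3 without H2023 replicate 2. MT-ND5 (-1.40) and MT-CYB (-1.41) were lower and MT-ND6 (2.62) was higher in H2023.

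**Figure D4:**
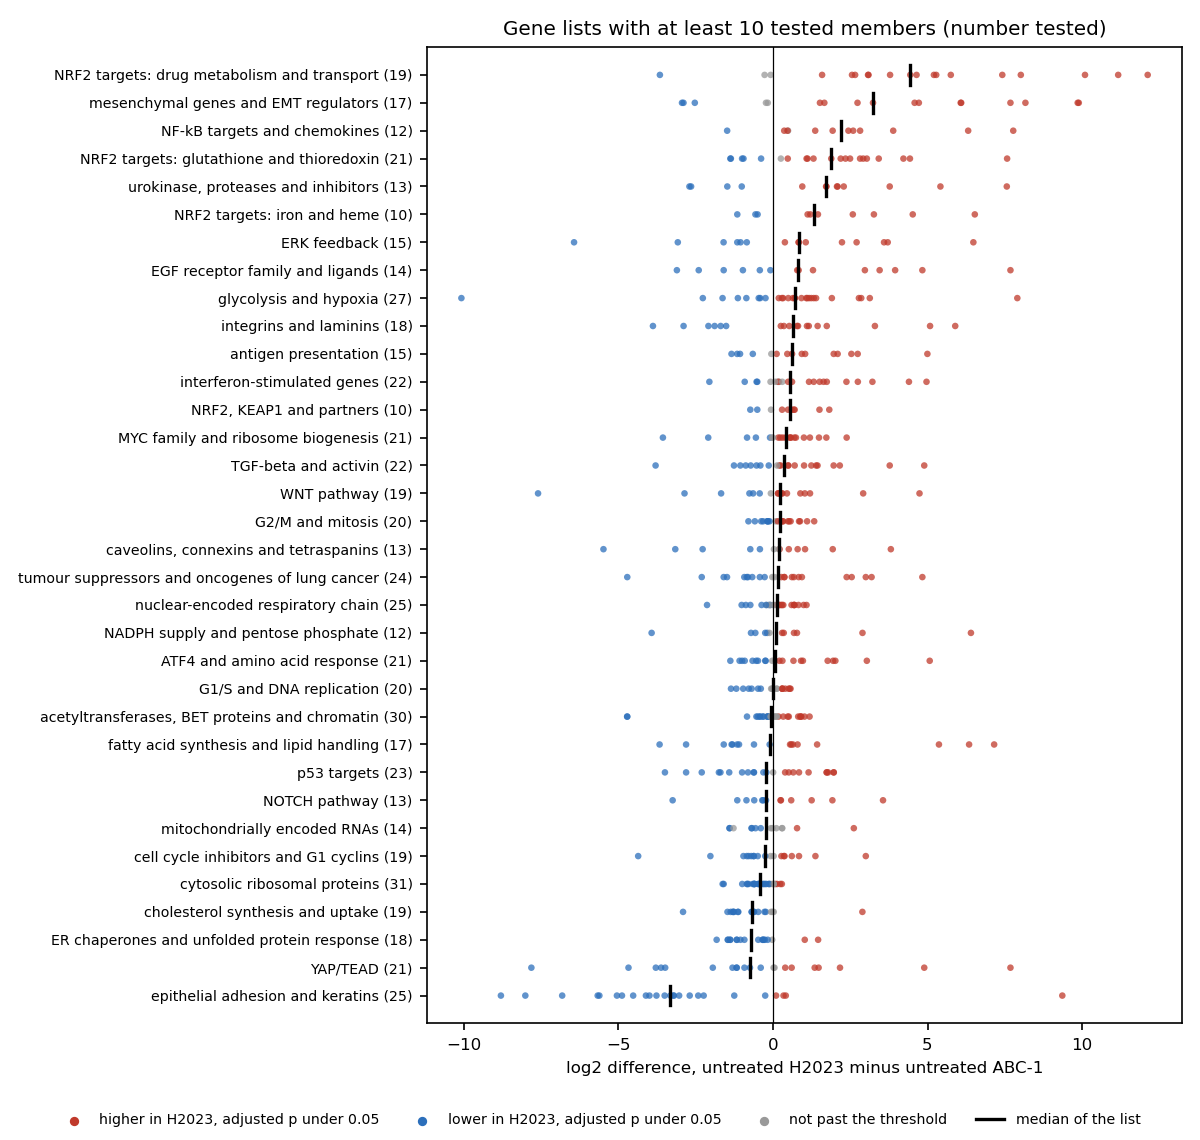
Log2 difference (untreated H2023 minus untreated ABC-1) of each tested member of the gene lists with at least 10 tested members, 1 point per gene, red where called higher in H2023, blue where called lower and grey where not called; the black bar is the median of the list and the number tested stands in brackets. The NRF2 target list of drug metabolism (median 4.44) stands at the top and the epithelial list (median -3.32) at the bottom.

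A gene row stood in the H2023 table alone for 2807 genes and in the ABC-1 table alone for 1577, of which 339 and 130 had a mean of at least 10 CPM. How rows were chosen for each table is not given in the sources used here, and these rows hold no measurement of the other line, so they are levels with no fold and no test. The 6 highest in H2023 were AKR1B1 (822, 814 and 834 CPM), TM4SF1 (783 ± 10.4), CA12, TFPI (507 ± 3.41), CYP24A1 (477 ± 2.91) and CXCL5. AKR1B1, aldose reductase, is a relative of AKR1B10, TM4SF1 a tetraspanin-like protein of the surface, TFPI an inhibitor of coagulation and CYP24A1 the enzyme that inactivates vitamin D. NRF2 targets among these rows were AKR1C1 (375 ± 15.0), PTGR1 (329 ± 6.18), CYP4F11 (168 ± 5.65), ABCC3 (129.7 ± 17.8), NMRAL2P (20.5 ± 1.31) and GSTM4 (18.9 ± 0.397 CPM), each in H2023. Both tables also hold rows named by a transcript in place of a gene, and the levels above leave these out. In H2023 they held a further 877 CPM for AKR1C1, 255 CPM for PTGR1 and 109 CPM for ABCC3. For a few of the genes, transcript rows give a partial view of ABC-1. Rows paired with AKR1B1 held 231 reads over the 3 ABC-1 libraries and 1658 over the 3 H2023 libraries, those of AKR1C1 18 and 45110, and those of PTGR1 33 and 13125.

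Cancer-testis antigens, genes of the germ line that tumours can switch on, were found in H2023: 15 of 24 list members had a row in the H2023 table alone and none in the ABC-1 table alone. Over all 19717 gene rows in either table, 2807 were in the H2023 table alone and 1577 in the ABC-1 table alone. In H2023, GAGE2A was at 246 ± 13.8, MAGEA4 at 155 ± 0.525 and MAGEA3 at 101 ± 0.711 CPM. These are families of near-identical copies, so the split between copies is uncertain. The member with rows in both tables, PRAME, was at 68.8 ± 1.19 against 5.17 ± 0.712 CPM (difference 3.62 ± 0.097). HOX genes, which set position along the body, were higher in 5 and lower in 3 of 8 tested members, with HOXB7 at 19.1 ± 0.616 against 4.27 ± 0.402 CPM, and had 16 of 31 rows in the H2023 table alone, HOXA10 being the highest at 23 ± 2.42 CPM, and none in the ABC-1 table alone. CD44, a hyaluronan receptor, had a row in the H2023 table alone at 365, 366 and 353 CPM.

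Among the 6 highest rows of the ABC-1 table alone were PLEKHG4B (1089.8, 1078 and 1132 CPM), CLDN6 (319 ± 12.0), S100A14 (235 ± 7.27), MGAT3 (229.8 ± 3.47) and the histone gene H3C7 (222 ± 21.0). CLDN6 encodes a claudin of embryonic epithelium. The epithelial genes GRHL2, PRSS8, RAB25 and OVOL1 were likewise in this table alone, at 207 ± 2.78, 153 ± 5.73, 88.3 ± 1.59 and 30.7 ± 3.08 CPM. They are 4 of the 5 epithelial list members found in a single table, each in that of ABC-1.

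By position, differences were not spread evenly over chromosomes. Over all 13047 tested genes on chromosomes 1 to 22 and X, 50.8% had a difference above 0. On chromosome 20 the share was 25.2% of 333 genes (median -0.54), on X 35% of 412 (median -0.39), on chromosome 16 70.4% of 626 (median 0.43) and on chromosome 21 70.0% of 140 (median 0.44). In the treated libraries, which this comparison did not use, the 4 medians were -0.58, -0.38, 0.45 and 0.48. In windows of 10 Mb with at least 20 tested genes, medians ran from -1.40 to 1.08. The lowest, chr13:70000001-80000000, had 25 genes of which 4.00% were above 0, and the highest, chr17:20000001-30000000, had 43 genes of which 88.4% were. The window chr3:180000001-190000000, where ABCC5 and SOX2 lie, had 54 genes and a median of -1.13. Copy number was not measured, and its part in these differences was not tested.

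**Figure D5:**
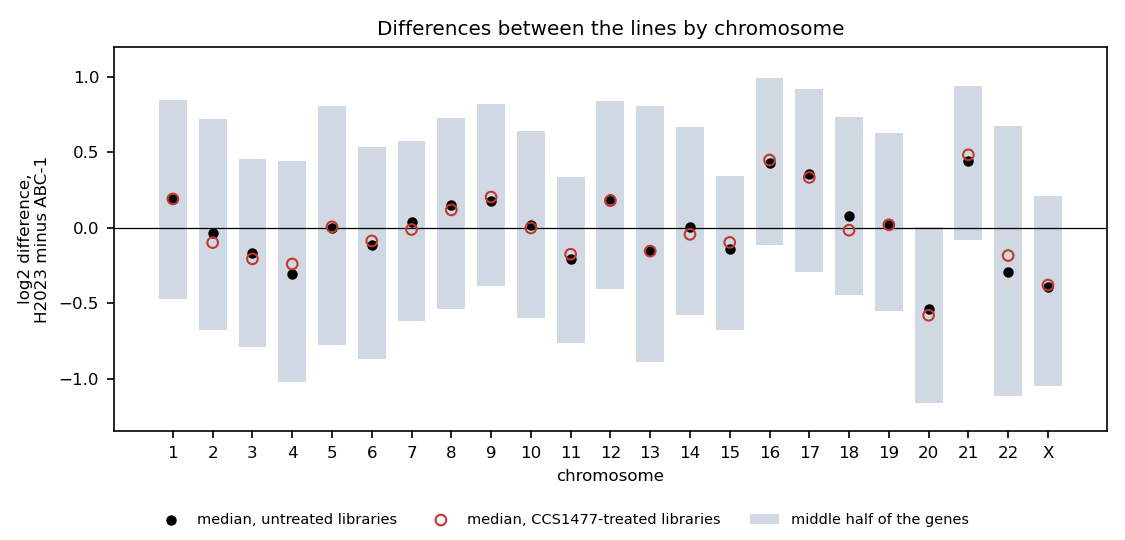
Log2 difference between the lines (H2023 minus ABC-1) by chromosome: black points are medians over the tested genes of untreated libraries, bars span the interquartile range of those genes, and open red circles are medians in the CCS1477-treated libraries. Chromosome 20 lies lowest and chromosomes 16 and 21 highest, and open and black points lie close together on each chromosome.

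The 6 libraries of the same lines after 24 h with CCS1477 give the same contrast in other libraries; the labels give its dose as 5 µM in one place and as 5 mM in another. There 79.2% of 13623 tested genes passed the threshold. Of the 11000 genes called in untreated cells, 10830 were also tested in treated cells, and 8920 (82.4%) were called in the same direction and 444 in the opposite one. Among genes that differed by at least 2-fold in untreated cells, 94.5% of 4523 were called in the same direction. The medians of the 3 NRF2 target lists were 4.44, 1.89 and 1.33 in untreated and 3.84, 1.46 and 1.16 in treated cells, and that of the epithelial list -3.32 and -3.41. NQO1 differed by 4.44 and 3.97, SLC7A11 by 3.04 and 3.02, HMOX1 by 4.52 and 4.87, and NFE2L2 itself by 0.61 and 0.054. The NF-kB list stood at a median of 2.19 untreated and 0.38 treated, with BIRC3 at 2.82 and 0.42 and CXCL8 at 3.89 and 0.68. The G2/M list stood at 0.21 and 1.36, and the cholesterol list at -0.69 and -1.46. Whether these pairs of values differ between untreated and treated cells was not tested here.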

How the data were processed

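RNA sequencing libraries of untreated H2023 and ABC-1 cells, 3 each, were compared, with the 6 CCS1477-treated libraries of the same lines beside them. Per the labels, total RNA was made into directional libraries and sequenced in read pairs. The build was GRCh38, per the submitters' processing notes; the aligner, the counter and strand in counting were not given in the sources used here. The authors deposited log2 values, 1 table per line, and the values show their making: log2 of whole reads divided by 1 factor per library, plus 4. Undoing this gave whole reads within 0.1 for values of up to 1000 reads. Since the tables were scaled apart, gene rows in both were joined by ID and the 6 libraries rescaled together with median-of-ratios factors. CPM are the reads of a gene row over all recovered reads. Transcript rows (9.19 to 10.3% of reads) count in that total and not in the level of a gene.

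Genes that reached 1 CPM in 3 or more libraries were tested on log2(scaled reads + 4) with limma-trend (limma 3.58.1, R 4.3.3), two-sided, with Benjamini-Hochberg adjustment over all tested genes and a threshold of 0.05. The fit was tried on simulated data in which only a small part of the genes differed. Most genes differed between these lines, so that trial cannot show how the fit behaves here. Intervals cover counting error only, at 95%, since they pool the reads of the 3 libraries of a line and leave out the spread between libraries. Between libraries of the same line, mean squared differences were 2.25 to 5.06 times counting noise. The reads also carry no molecular identifiers and so do not each stand for a molecule. The intervals are therefore likely too narrow. The members and the 41 gene lists were chosen with earlier results of these data known. Named were NFE2L2, KEAP1, MAFG, BACH1, EP300 and CREBBP, the 12 highest and 12 lowest differences under the conditions given in the text, up to 6 members per list with the smallest p plus members needed to account for the list, and, for rows in 1 table, the 6 highest and list members of at least 5 CPM; a few below that level, such as NKX2-1, were named for their role after their values were seen. Positions and overlaps came from the annotation in hand, promoters from RefSeq (GRCh38.p14). Y-linked genes were left out, and a number of others go unreported. Alternatives were 3 other scalings, limma-voom, constants of 1 and 0.5, 2 other filters, a fold threshold, 1 fit over 12 libraries, the replicate number as a block, transcript rows added to their genes, and each library left out.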

Additional observations from a re-analysis of the deposited data

Results flagged for a closer look

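For 6 of the 240 named genes the difference between the lines passed the threshold in untreated and in treated libraries with opposite signs, so that each was higher in 1 line without CCS1477 and in the other line with it. Whether the 2 differences differ was not tested. SYP, synaptophysin, differed by 0.76 untreated and by -1.01 treated, and its untreated value was 0.44 with transcript rows added. JAG1, a Notch ligand, differed by 1.25 and by -0.85. CAVIN1, a coat protein of caveolae, differed by 0.80 and by -0.48. CCNA2, cyclin A2, differed by -0.79 and by 0.39. ATF4, the factor of the amino acid response, differed by -0.54 and by 0.28. HERPUD1, a membrane protein of the endoplasmic reticulum that takes part in protein degradation, differed by -1.47 and by 0.50. All values are H2023 minus ABC-1 on the log2 scale, from limma fits of 3 against 3 libraries.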

How the results depend on the processing

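Across the alternatives the number of genes past the threshold ran from 9573, with 1 CPM required in all 6 libraries (11618 genes tested), to 11489, with transcript rows added to their genes. That filter leaves fewer list members tested, and with it 3 mesenchymal, 1 neuroendocrine and 3 HOX members were higher, in place of 12, 4 and 5, and 2 squamous members were lower in place of 4. With an absolute log2 difference of at least 1 as well it was 4649. Scaling by library totals gave 5900 higher and 5133 lower genes. Leaving out each library in turn gave 10638 to 10747 genes, 5392 to 5463 higher and 5245 to 5314 lower. For the treated libraries the total ran from 10710 to 10854.

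With the replicate block, the replicate number as a term in the fit, 10910 genes passed, 5538 higher and 5372 lower. Same-numbered libraries of the 2 lines share only a number: their deviations correlated at 0.048, 0.053 and 0.0062, and H2023 replicate 3 and ABC-1 replicate 3 each correlated better with another number.

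Over 652 named or listed genes, 10826 of 11007 values kept direction and side of the threshold, 121 lost the call, 54 gained it and 6 turned. Those that turned did so with transcript rows added, to -0.19 for ARID1B, -0.30 for PSPH, 0.56 for VLDLR, 0.17 for COX6C, 0.0004 for RPL13 and 0.79 for PSMB10; the cause was not tested. Among called values that moved by over 1.5 times were OAS1 (4.97 to 1.35), SYP (0.76 to 0.44), KAT8 (0.91 to 0.45), BBC3 (-1.70 to -0.91) and RPL22L1 (-0.79 to -0.51) with transcript rows, TERT (3.19 to 5.18 with limma-voom and 5.27 with a constant of 0.5), and MT-ND1 (-0.57 to -0.27) and MT-ND4L (-0.70 to -0.35) without ABC-1 replicate 3. Depth limits most the genes near 1 CPM, where the counting error of 1 library alone is 23.4 to 26.3%.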
